A study of Mus musculus with 5 samples.

Results

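The colony stimulating factors and their receptors were followed in mouse peritoneal macrophages that did or did not carry a deletion of Nrp1. The set is the 8 genes whose symbols are Csf1, Csf2, Csf3, Csf1r, Csf2ra, Csf2rb, Csf2rb2 and Csf3r, out of 38463 gene symbols in the table, and it holds 3 ligand genes and 5 receptor genes. All 8 were found, each in a single row. RNA came from macrophages of the abdominal cavity kept in F12 DMEM with 10% fetal bovine serum. The wild-type group had 3 libraries from mice whose strain is labelled C7/BL6. The knockout group had 2 libraries from LysMCre-Nrp1fl/fl mice, labelled Nrp1-/-, where floxed Nrp1 is deleted in myeloid cells by Cre driven from the lysozyme M gene. Its product, neuropilin 1, sits in the cell membrane and helps bind semaphorins and VEGF. The labels give no age, sex or time in culture and no Cre control for the wild-type mice, and do not state whether each library stands for its own mouse. The p-values therefore reflect only how these libraries spread, which may be technical.

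The colony stimulating factors are secreted proteins that keep myeloid cells alive and direct their growth. CSF1, also called M-CSF, binds CSF1R, a receptor tyrosine kinase on which most tissue macrophages depend, and interleukin 34 is its other ligand. CSF2, or GM-CSF, binds a specific alpha chain, encoded by Csf2ra, together with a beta chain, encoded by Csf2rb, that is shared with the receptors for interleukin 3 and interleukin 5. Mice carry a second beta chain gene, Csf2rb2, whose product serves the interleukin 3 receptor. CSF3, or G-CSF, binds CSF3R, a receptor best known from neutrophils and also made by monocytes and macrophages.

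The 2 beta chain genes are close copies that lie head to head on chromosome 15 of GRCm38, Csf2rb2 at 78282507 to 78305721 on the minus strand and Csf2rb at 78325752 to 78353847 on the plus strand, 20.0 kb apart. In GENCODE M21 their longest complete coding sequences have 2691 bases for Csf2rb and 2637 for Csf2rb2. Of 2631 aligned coding bases 2505 were identical, or 95.2%, and the longest stretch without a mismatch had 242 bases. Of the 50-base stretches in the Csf2rb2 transcript, 19.0% also occur in the Csf2rb transcript, so reads can be split between the copies and the value of each gene is uncertain. The coding stretch of 90 bases with the most mismatches, 16, lies in exon 4 of both genes, at chr15:78338897-78338986 on the plus strand for Csf2rb and at chr15:78294345-78294434 on the minus strand for Csf2rb2. It is shown because reads that cover it can be told apart, and capitals mark the bases that differ:
Csf2rb: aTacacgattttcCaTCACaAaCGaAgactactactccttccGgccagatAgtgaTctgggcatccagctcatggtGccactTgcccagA
Csf2rb2: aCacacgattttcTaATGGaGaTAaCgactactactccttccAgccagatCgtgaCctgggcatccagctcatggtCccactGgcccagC
In exon 8 the copies share a coding stretch of 90 bases with 0 mismatches, at chr15:78341658-78341747 for Csf2rb and at chr15:78291563-78291652 for Csf2rb2. It is shown because a read that falls inside it cannot be given to either gene:
Csf2rb and Csf2rb2: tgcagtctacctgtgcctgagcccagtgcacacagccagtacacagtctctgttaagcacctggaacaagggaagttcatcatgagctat
Of the 1313 windows of this length that stay within an exon in both genes, 286 had no mismatch.

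Values are FPKM, fragments counted relative to transcript length and library size, a scale on which levels of different genes can be compared. Summed over genes they came to between 539101 and 629135 per library. Wild-type replicate 3 stood apart, with the highest sum, the fewest genes of at least 1 FPKM (11014, against 11947 to 12020 in the others) and the lowest Pearson's r across tested genes with the other libraries (0.929 to 0.938). It was the lowest of the 5 libraries for 54.4% of tested genes. Results that rest on it are given with and without it. Nrp1 had 24.3, 19.0 and 11.5 FPKM across wild-type and 7.63 and 7.70 in knockout. Its log2 fold change of -1.09 did not pass (limma adjusted p = 0.93). Lyz2, the gene of the Cre driver, was listed at 0 in the wild-type libraries and at 53.0 and 64.3 in knockout (limma adjusted p = 4.18e-04). Why Lyz2 was listed at 0 in wild-type macrophages was not tested, so it is not taken as a check of the genotype. Macrophage markers ranged widely in level in both groups. Emr1, the F4/80 antigen, had 183 to 222 FPKM and Cd68 1141 to 1964, while Fcgr1 had 8.34 to 12.3. Mertk had 17.2 to 25.8 across wild-type and 27.8 to 28.8 in knockout, without overlap. Itgam had 228 to 327 across wild-type and 320 to 394 in knockout, and Cd14 800 to 2029 and 896 to 1011, both with overlap. Of the 7 tested macrophage markers, Csf1r among them, 2 had a positive log2 fold change.

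The cultures held the receptors at high levels and the ligands at low or very low levels. In order of the wild-type mean, Csf1r came first, then Csf2ra, Csf3r, Csf2rb, Csf2rb2 and Csf1, with Csf3 and Csf2 last. By the mean over all libraries, Csf1r stood above 99.4% of the genes tested, Csf2ra above 97.7%, Csf3r above 92.7%, Csf2rb above 91.5% and Csf2rb2 above 89.2%, whereas the ligand gene Csf1 stood above 42.4%. Neighbours in this order did not overlap, except that Csf3r and Csf2rb overlapped in both groups, as did Csf3 and Csf2. In knockout Csf3r also overlapped Csf2rb2.

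**Figure D1:**
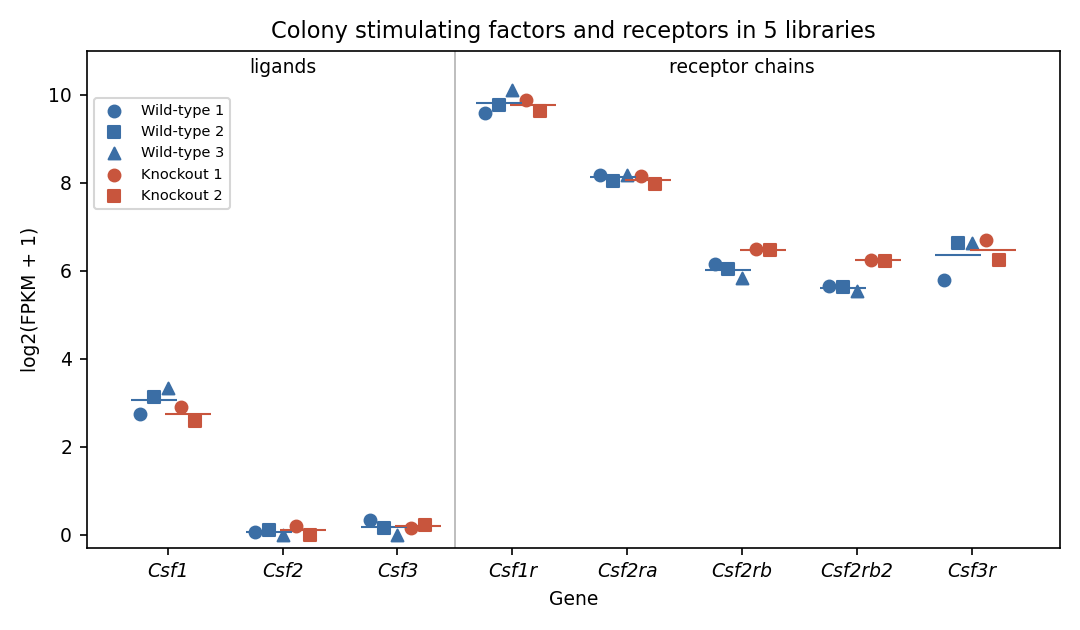
Level of each colony stimulating factor and receptor gene in each library, as log2(FPKM + 1), with blue symbols for the 3 wild-type and red symbols for the 2 knockout libraries and lines at the group means. The receptor genes sit far above the ligand genes, and for Csf2rb and Csf2rb2 both knockout symbols lie above all wild-type symbols.

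Of the 8 genes, 6 passed the filter of at least 1 FPKM in at least 2 libraries and were tested, and Csf2 and Csf3 were not. No tested member passed in the comparison of knockout with wild-type (limma, Benjamini-Hochberg adjusted p under 0.05), where 0.0573% of all 12214 tested genes did. At an unadjusted p under 0.05 there was 1 member, Csf2rb2, where 1.82% of all tested genes reached that level. The groups did not overlap for 2 of the 6 members, Csf2rb and Csf2rb2, both higher in knockout, against 20.8% of all tested genes without overlap, 13.9% with knockout higher and 6.95% with knockout lower. These 2 genes share sequence, so they are not separate counts. The log2 fold change, knockout over wild-type on the log2(FPKM + 1) scale, was positive for 3 members and negative for 3, with a median of 0.03, beside 0.11 over all genes tested. The two-sided exact permutation p of a single gene was taken as 2 times the smaller tail. Counted so, it cannot fall below 0.2 with 3 and 2 libraries.

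Csf1, which encodes the main growth factor of macrophages, lies on chromosome 3 at 107741048 to 107760469. It had 5.69, 7.76 and 9.11 FPKM in wild-type replicates 1, 2 and 3 and 6.44 and 4.99 in knockout replicates 1 and 2. The groups overlapped, with the highest value in wild-type replicate 3 and the lowest in knockout replicate 2. The means were 7.52 ± 1.72 (SD, n = 3) and 5.72 ± 1.02 (SD, n = 2), which makes a log2 difference of -0.33 ± 0.27 (SE) with a 95% interval from -0.96 to 0.30 (limma adjusted p = 0.93). Without wild-type replicate 3 it was -0.20, and it was negative in each of the 16 alternatives tried. Some of these, such as the row order and the filter, leave the Csf1 values as they are. Its sign could not change there. Mesothelial cells and fibroblasts, which can also make CSF1, left weak traces. The summed level of their 12 markers was 25.6 to 60.3 FPKM across wild-type and 24.5 to 31.5 in knockout, with 0 of 6 tested markers on the positive side. It was 25.6 in wild-type replicate 3, where Csf1 was highest, and the part of these cells in the Csf1 values was not tested. In bulk RNA, fewer cells of a type and less RNA per cell cannot be told apart.

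The genes of GM-CSF and G-CSF were close to the bottom of the scale. Csf2, on chromosome 11 at 54247271 to 54249667, had 0.037, 0.0793 and 0 FPKM across wild-type and 0.146 and 0 in knockout. Csf3, on chromosome 11 at 98701263 to 98703629, had 0.264, 0.112 and 0 in wild-type and 0.114 and 0.166 in knockout. The groups overlapped for both, and no difference was detectable at these levels. Il34, which encodes the other ligand of CSF1R, was listed at 0 in 4 libraries and at 0.236 in wild-type replicate 2. Of the cytokines that use the shared beta chain, Il3 was listed at 0 in all 5 libraries and Il5 reached at most 0.0253.

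Csf1r, which encodes the receptor for CSF1 and interleukin 34, was the most abundant member and did not separate the groups. It lies on chromosome 18 at 61100598 to 61132149. It had 765, 864 and 1108 FPKM across wild-type and 943 and 793 in knockout, so both knockout values fell between the lowest and the highest wild-type value. The means were 913 ± 177 (SD, n = 3) and 868 ± 106 (SD, n = 2). Their log2 difference was -0.06 ± 0.28 (SE), with a 95% interval from -0.73 to 0.61 (limma adjusted p = 0.97). The sign was not stable, and without wild-type replicate 3 the value was 0.09. Within a library, Csf1r stood above Csf1 by a factor of 135, 111 and 122 in wild-type and 146 and 159 in knockout. This ratio of receptor to ligand transcripts was higher in both knockout libraries than in each wild-type library, a description with no test. Taken alone, both genes overlapped between the groups. Among all tested genes 20.8% showed no overlap, and the share for ratios was not counted.

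Csf2ra, which encodes the alpha chain that makes the GM-CSF receptor specific, was the second most abundant member. It lies on chromosome 19 at 61223957 to 61228429. It had 290, 263 and 286 FPKM across wild-type and 283 and 249 in knockout. Knockout replicate 1 stood among the wild-type values and knockout replicate 2 just under them. The means were 280 ± 14.7 (SD, n = 3) and 266 ± 24.4 (SD, n = 2), which makes a log2 difference of -0.07 ± 0.21 (SE) with a 95% interval from -0.58 to 0.43 (limma adjusted p = 0.95).

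The beta chain genes stood higher in both knockout libraries. Csf2rb, the common beta chain of the GM-CSF, interleukin 3 and interleukin 5 receptors, had 69.8, 65.2 and 55.8 FPKM across wild-type and 89.6 and 87.2 in knockout. Csf2rb2, the beta chain that serves interleukin 3, had 49.2, 48.2 and 45.7 FPKM across wild-type and 75.3 and 73.3 in knockout. For both genes the groups did not overlap, and wild-type replicate 3 was the lowest library. The values within a group lay close together for Csf2rb2, while those of Csf2rb ran from 55.8 to 69.8 across wild-type. For Csf2rb the means were 63.6 ± 7.13 (SD, n = 3) and 88.4 ± 1.68 (SD, n = 2), a ratio of 1.39 and a log2 fold change of 0.47 ± 0.20 (SE), with a 95% interval from -0.01 to 0.95 (limma adjusted p = 0.93). For Csf2rb2 they were 47.7 ± 1.78 (SD, n = 3) and 74.3 ± 1.36 (SD, n = 2), a ratio of 1.56 and a log2 fold change of 0.63 ± 0.19 (SE), with a 95% interval from 0.19 to 1.07 (limma adjusted p = 0.93). The intervals are not adjusted for the number of genes tested. Relative to the median of all genes the Csf2rb2 difference was 0.52. Neither gene passed the threshold over all genes, and for each the exact permutation p was 0.2, the smallest this test can give here. Without wild-type replicate 3 the log2 fold changes were 0.38 for Csf2rb and 0.60 for Csf2rb2, so both stayed on the higher side when the library that stood apart was left out.

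Because reads can be split between the copies, they were also added up. The summed level of Csf2rb and Csf2rb2 was 119, 113 and 102 FPKM across wild-type and 165 and 161 in knockout. Both knockout sums lay above every wild-type sum, with a log2 fold change of 0.55 ± 0.20 (SE). The sum did not pass either (limma adjusted p = 0.93). Csf2rb2 gave 41.3%, 42.5% and 45.0% of the sum in wild-type and 45.7% in each knockout library. The share was 2.71 percentage points higher in knockout (43.0% ± 1.89, SD, n = 3, against 45.7% ± 0.0167, SD, n = 2), with an exact permutation p of 0.2, and wild-type replicate 3 was within 1 percentage point of the knockout libraries.

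**Figure D2:**
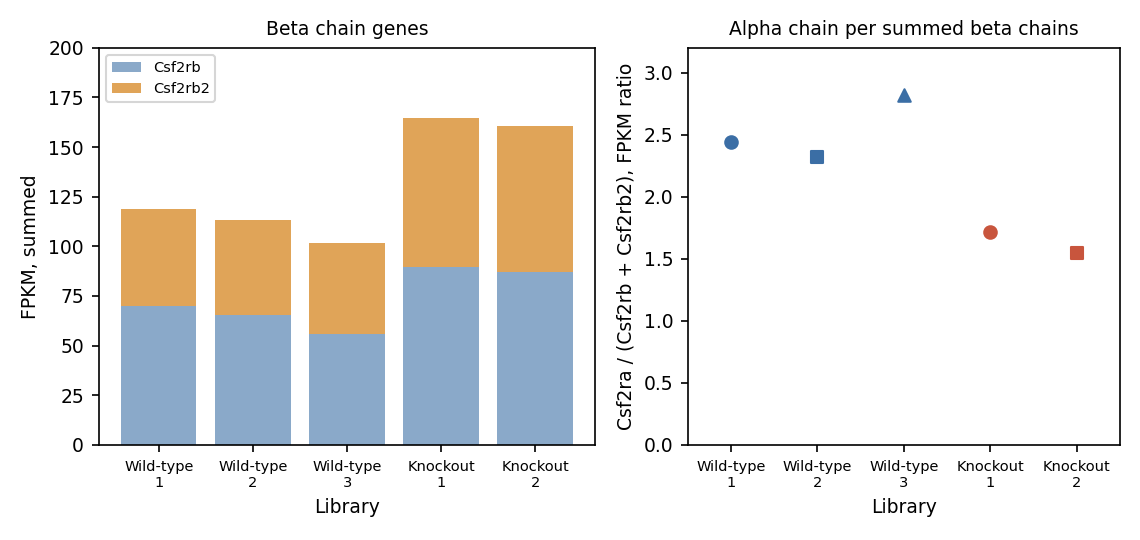
Left, FPKM of Csf2rb (blue) and Csf2rb2 (orange) stacked for each library; the stacks reach 102 to 119 in wild-type and 161 to 165 in knockout. Right, the FPKM of Csf2ra divided by that sum, with blue symbols for wild-type (2.32 to 2.82) and red symbols for knockout (1.55 to 1.72).

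The level of the alpha chain gene relative to the beta chain genes was lower in knockout. Csf2ra itself overlapped between the groups, so this restates the higher beta chain values and is not a separate result. Csf2ra divided by the summed beta chain level was 2.44, 2.32 and 2.82 in wild-type and 1.72 and 1.55 in knockout. The groups did not overlap. This ratio, a description with no test, does not depend on how libraries are scaled against each other. Il3ra, the interleukin 3 receptor alpha chain, had 44.7, 40.5 and 93.6 FPKM across wild-type and 36.8 and 34.8 in knockout, so wild-type replicate 3 was far above the rest. Its log2 fold change of -0.62 was -0.24 without that library. Il5ra, the interleukin 5 receptor alpha chain, reached at most 0.0553 FPKM.

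Cells other than macrophages can carry the beta chains. Mast cells use interleukin 3, and the summed level of 9 mast cell markers was 18.6, 28.3 and 186 FPKM across wild-type and 36.9 and 20.3 in knockout, with 0 of 6 tested markers on the positive side and none at 0 in all libraries. The mast cell sum was thus highest in wild-type replicate 3, where both beta chain genes were lowest. Eosinophil markers summed to between 0.181 and 0.589 FPKM, with Prg2 and Epx at 0 in all 5 libraries. The summed level of 8 markers of large peritoneal macrophages was 134 to 153 FPKM across wild-type and 171 to 206 in knockout, without overlap, with 4 of 7 tested markers positive. This separation came from Prg4 alone, at 53.9 to 81.8 FPKM in wild-type libraries and 119 to 147 in knockout. Summed without it, the other 7 markers overlapped, at 52.2, 99.5 and 80.9 FPKM in wild-type libraries and 59.6 and 51.4 in knockout. Alox15 had 19.8, 59.1 and 54.0 FPKM in wild-type libraries and 26.8 and 17.4 in knockout, also with overlap. Gata6, the factor that defines these cells, overlapped at 7.01 to 9.65 and 8.51 to 9.82. The part of any of these cells in the beta chain values was not tested.

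Csf3r, the G-CSF receptor gene, had the largest spread relative to its level among the receptor genes. It lies on chromosome 4 at 126024550 to 126044440. It had 54.7, 98.1 and 97.4 FPKM across wild-type and 103 and 74.7 in knockout. Wild-type replicate 1 was the low library, and the groups overlapped. The means were 83.4 ± 24.9 (SD, n = 3) and 88.7 ± 19.7 (SD, n = 2), which makes a log2 difference of 0.12 ± 0.32 (SE) with a 95% interval from -0.64 to 0.88 (limma adjusted p = 0.95). Without wild-type replicate 1 it was -0.16, and with median-of-ratios scaling -0.01, so its sign was not stable; without wild-type replicate 3 it was 0.25. Of the defining genes of neutrophils, where this receptor is best known, Ly6g was listed at 0 in all 5 libraries and Cxcr2 reached at most 0.0319 FPKM. The 11 neutrophil markers summed to 55.8 to 117 FPKM across wild-type and 94.6 to 118 in knockout, with 3 of 3 tested markers positive. S100a8, Mmp8 and Mmp9 gave nearly all of that sum. In wild-type replicate 1, where Csf3r was lowest, the sum was 117, the highest wild-type value. The part of neutrophils in the Csf3r values was not tested.

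**Figure D3:**
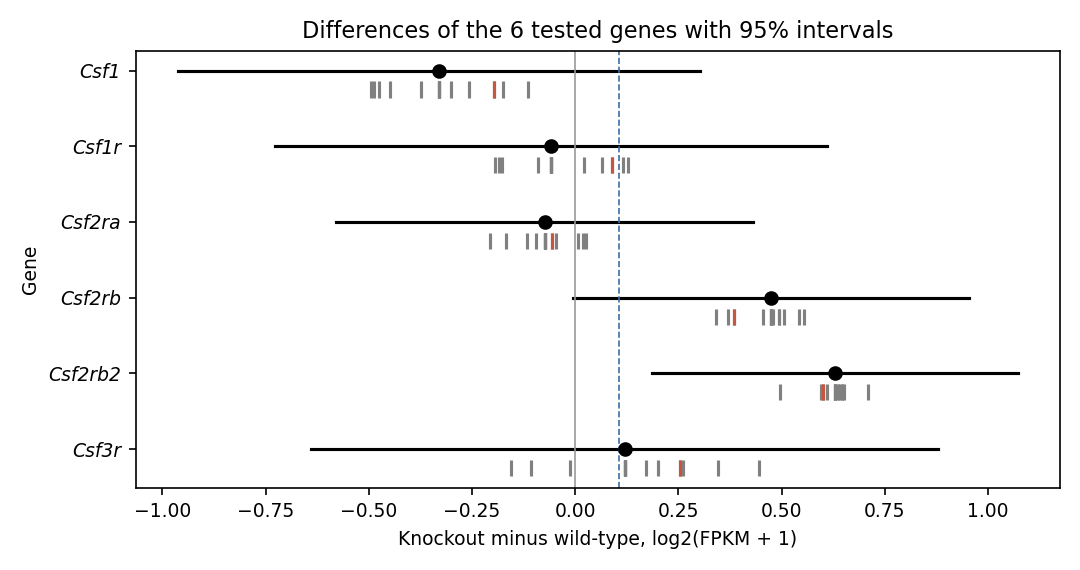
Knockout minus wild-type difference on the log2(FPKM + 1) scale for the 6 tested genes, as black points with 95% limma intervals, with ticks for the alternatives (red, without wild-type replicate 3). The dashed line is the median of all tested genes, 0.11; only Csf2rb2 has an interval that leaves out 0 before adjustment.

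Promoter sequences of RefSeq (GRCm38.p6, 250 bases before to 50 after the start of the gene) were used for 5 of the 8 members. The starts are those of RefSeq, which equal the GENCODE start for Csf1 and Csf2rb2 and lie 11 bases from it for Csf2ra, 109 for Csf3r and 232 for Csf2. The Csf2 window therefore lies wholly outside the gene as GENCODE places it. They are shown for the alpha and beta chain genes Csf2ra and Csf2rb2, chains of the receptors for GM-CSF and interleukin 3. Capitals mark GAGGAA on either strand, the core of the sites bound by PU.1, the macrophage transcription factor encoded by Spi1. Csf2ra lies at chr19:61228369-61228668 and Csf2rb2 at chr15:78305672-78305971, both on the minus strand:
Csf2ra: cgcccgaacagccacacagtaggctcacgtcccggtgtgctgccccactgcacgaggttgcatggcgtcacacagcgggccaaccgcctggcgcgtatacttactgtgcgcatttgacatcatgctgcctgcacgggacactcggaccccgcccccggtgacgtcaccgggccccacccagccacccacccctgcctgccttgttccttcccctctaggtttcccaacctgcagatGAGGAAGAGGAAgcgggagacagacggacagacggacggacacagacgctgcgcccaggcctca
Csf2rb2: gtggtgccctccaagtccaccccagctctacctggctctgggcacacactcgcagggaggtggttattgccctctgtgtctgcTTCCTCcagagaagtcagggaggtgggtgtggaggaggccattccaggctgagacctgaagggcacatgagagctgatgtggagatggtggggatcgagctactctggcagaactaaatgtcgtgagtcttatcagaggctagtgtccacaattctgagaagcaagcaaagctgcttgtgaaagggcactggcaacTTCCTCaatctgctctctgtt
GAGGAA occurred 2 times in each of these, 1 time in the Csf3r window and not in those of Csf1 and Csf2, that is, in 3 of 5 members, and in 28.3% of 32851 promoters of this length. The longer form GAGGAAGT, which contains it, was found in Csf2rb2 alone of the 5 and in 3.2% of all promoters. TGTGGT, bound by RUNX factors, was in 0 of the 5 and in 16.8% of all. TTNNGNAA, a loose form of the C/EBP site, was in Csf2, Csf2ra and Csf2rb2 and in 40.7% of all. Each motif was searched on both strands. The Csf2ra window held 23 CG dinucleotides and the Csf2rb2 window 3, against a median of 7. These are matches of letters and were not linked to the expression values. Spi1 itself had 464, 480 and 461 FPKM across wild-type and 404 and 473 in knockout, with overlapping groups.

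None of the genes that work with CSF1R was called. Each list was read for how many members passed, beside all tested genes, of which 63.9% had a positive log2 fold change. Of the partners and first signalling proteins of CSF1R, 23 of 24 listed genes were tested, 0 passed in either direction, 17 were positive and 6 negative, and the median was 0.22 against 0.11 for all genes. Cbl, the ubiquitin ligase that ends CSF1R signalling, had 12.1, 13.3 and 6.15 FPKM across wild-type and 19.7 and 15.1 in knockout, with no overlap. Sos1, an exchange factor that activates Ras, had 2.34 ± 1.18 (SD, n = 3) and 3.55 ± 0.287 (SD, n = 2), and the lipid phosphatase gene Inpp5d 113 ± 22.7 and 152 ± 31.9, the last with overlap and at a log2 fold change of 0.21 without knockout replicate 1. Wild-type replicate 3 was the lowest library for 14 of the 23. Without it the list's median was 0.02 above that of all genes, and Cbl went from a log2 fold change of 0.73 to 0.42, Sos1 from 0.52 to 0.18 and Inpp5d from 0.42 to 0.26.

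The JAK-STAT genes below the GM-CSF and G-CSF receptors gave no called member. All 20 were tested, 0 passed, 16 were positive and 4 negative, with a median of 0.23. Stat3, the main transducer of the G-CSF receptor, had 62.2, 74.3 and 45.3 FPKM across wild-type and 84.7 and 80.5 in knockout, with no overlap. Ptpn6, which encodes the phosphatase SHP-1 that restrains these receptors, had 285, 256 and 305 FPKM in wild-type libraries and 261 and 159 in knockout. Its groups overlapped, and knockout replicate 2 alone was low. The log2 fold change of -0.47 was -0.11 without that library and -0.82 without knockout replicate 1. Stat5a and Stat5b encode the transducers of the GM-CSF receptor. Stat5a had 9.50, 10.4 and 3.56 FPKM in wild-type replicates 1, 2 and 3 and 11.7 and 9.32 in knockout, with overlap. Stat5b had 17.2, 18.42 and 9.09 across wild-type and 18.81 and 18.77 in knockout, a narrow gap. For both, wild-type replicate 3 alone was low. Wild-type replicate 3 was the lowest library for 15 of the 20, and without it 14 were positive, the median was 0.06 above that of all genes and Stat3 was at 0.28 instead of 0.47.

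**Figure D4:**
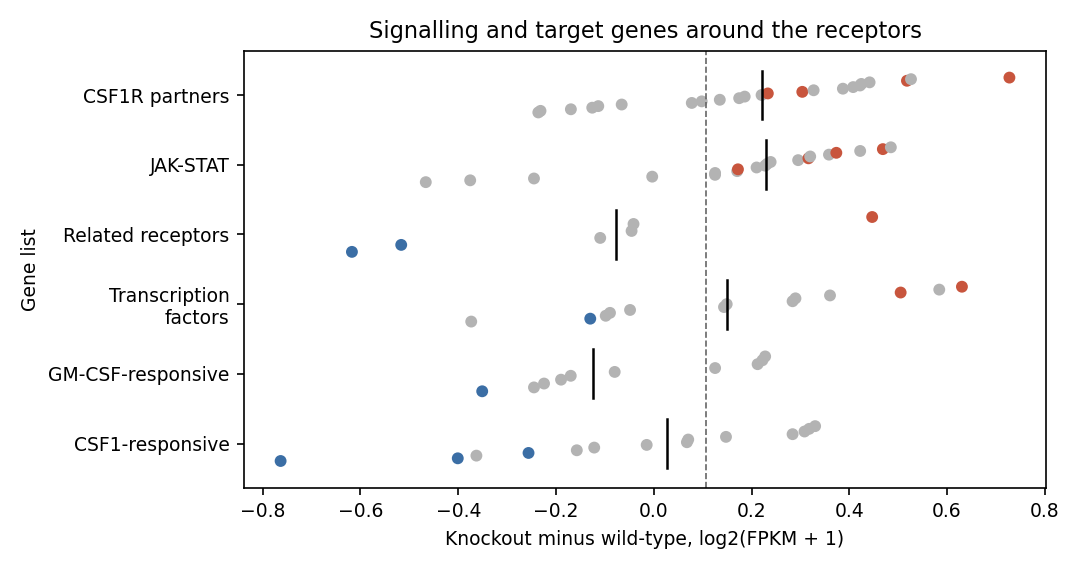
Knockout minus wild-type difference on the log2(FPKM + 1) scale for each tested gene of 6 lists, with red points where both knockout libraries lie above all wild-type libraries, blue points where both lie below and grey points where groups overlap. Black bars are list medians, which run from -0.12 to 0.23, and the dashed line is the median of all tested genes, 0.11.

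Genes known to respond to the factors gave no called member either. Of the CSF1-responsive genes, 14 of 18 were tested, 0 passed, 7 were positive and 7 negative, with a median of 0.03. Ccnd1, the cyclin D1 gene that growth factors induce, had 1.27, 2.23 and 1.47 FPKM across wild-type and 0.635 and 0.463 in knockout, without overlap. Its log2 fold change was -0.76 ± 0.25 (SE), which is not past the threshold (limma adjusted p = 0.93). Phlda1 had 5.29 ± 1.19 (SD, n = 3) and 3.73 ± 0.581 (SD, n = 2), also without overlap, and Fosl1, an AP-1 subunit gene, had 4.20, 6.24 and 7.44 FPKM in wild-type libraries and 4.22 and 4.39 in knockout, with overlap. Its log2 fold change of -0.36 was -0.21 without wild-type replicate 3. Wild-type replicate 3 was the lowest library for 10 of the 14, and it decided the split. Without it 1 of the 14 was positive, where 53.4% of all tested genes were. The median was then 0.32 under that of all genes, and none passed. Leaving this library out was chosen after seeing the data, and whether these genes vary independently was not tested. Of the GM-CSF-responsive genes, 10 of 14 were tested, 0 passed, 4 were positive and 6 negative, and the median was -0.12, which is 0.23 under that of all genes. Without wild-type replicate 3 it was 0.061 under that of all genes, with 3 of 10 positive. Pparg, a nuclear receptor that GM-CSF induces in alveolar macrophages, had 2.31, 4.21 and 3.24 FPKM across wild-type and 2.28 and 2.27 in knockout. Its values did not overlap by a narrow gap, between 2.28 and 2.31. The integrin gene Itgax had 43.9 ± 7.39 (SD, n = 3) and 37.1 ± 1.96 (SD, n = 2), and Bhlhe41, a transcription factor gene, 25.7 ± 2.82 and 30.1 ± 2.52, both with overlap. Without wild-type replicate 3 Itgax went from -0.22 to -0.35 and Bhlhe41 from 0.22 to 0.15. Ccl17 and Ccl22, chemokine genes that GM-CSF raises, reached at most 0.19 and 0.505 FPKM.

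Transcription factors that act at Csf1r and the other receptor genes gave 0 called members of 13 tested out of 15 listed. Of these 8 were positive and 5 negative, and the median was 0.15, which is 0.04 above that of all genes. Fli1, an ETS factor, had 16.1, 16.6 and 4.63 FPKM across wild-type and 17.5 and 17.4 in knockout, and its log2 fold change of 0.63 was 0.09 without wild-type replicate 3. Bach1, a repressor, had 14.2 ± 5.65 (SD, n = 3) and 19.4 ± 0.0547 (SD, n = 2), and the AP-1 subunit gene Jun 57.8 ± 16.8 and 43.1 ± 1.31, the latter with overlap. Wild-type replicate 3 was the lowest library for 11 of the 13. Without it the value for Bach1 went from 0.51 to 0.17 and that for Jun from -0.37 to -0.61. Then 5 of 13 were positive, and the list's median was 0.12 under that of all genes. Of the related cytokines and receptors, 6 of 13 were tested, 0 passed, and 1 was positive. Crlf2, a receptor chain for thymic stromal lymphopoietin, had 72.0, 75.8 and 140 FPKM across wild-type and 62.6 and 64.6 in knockout, a pattern like that of Il3ra, and its log2 fold change went from -0.52 to -0.21 without wild-type replicate 3. Kitl, the ligand of the mast cell receptor KIT, had 2.72 ± 1.38 (SD, n = 3) and 3.79 ± 0.0682 (SD, n = 2), and went from 0.45 to 0.08.

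Genes with the most similar profile over the 5 libraries were found by the root mean square difference of centred log2(FPKM + 1) values, among 5061 other genes (5062 for Csf1) with a mean of at least 10 FPKM. Nearest to Csf2rb2 were Klhdc10 (0.0606) and Ptgfrn (0.0808), and Ptgfrn was also near Csf2rb (0.0724). Ptgfrn, at 37.5, 37.7 and 32.2 FPKM across wild-type and 56.4 and 49.0 in knockout, was near both copies. Nearest to Csf1r were Anxa11 (0.0282) and Adsl (0.0308), to Csf2ra Arfgap2 (0.0257) and Stx4a (0.0257), to Csf1 Hspa8 (0.028) and Smap2 (0.0361), and to Csf3r Atxn2 (0.0572) and Tgm2 (0.0992). Profiles over 5 libraries are short, and these likenesses are descriptions.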

How the data were processed

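Per the labels' protocols, mRNA was purified from 1 µg of total RNA and sequenced as Ion Torrent libraries, and Torrent Suite 4.4 with the Whole Transcriptome Analysis Plugin 4.2-r7 was used; the submitters' processing notes name TopHat2, Bowtie2, Cufflinks and mm10. The deposited values are FPKM per gene and library, made by the authors. Cufflinks values are not whole reads, so the depth is unknown. A further 17 columns were not used.

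The values of wild-type replicate 3 stood in another name order (2144 displaced rows) and were put back; Pearson's r with the other libraries in 722 expressed displaced rows went from 0.171 to 0.916. No row of the 8 genes was displaced (0 of 8). Rows named by a number (27) or differing only in case (50) were left out, and duplicate symbols were summed.

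Genes with FPKM of at least 1 in at least 2 libraries were compared on the log2(FPKM + 1) scale. The model, fitted with limma 3.58.1 (R 4.3.3), held genotype alone and a mean-variance trend, and p-values were adjusted over all tested genes by the Benjamini-Hochberg method. Fold changes on this scale understate those of low genes. Exact permutation tests used SciPy 1.17.1. The fit was tested on simulated data and the reordering on a misordered copy of another library. Alternatives covered the row order, pseudocount, filter, scaling, library weights, replicate block and each library left out. Coding sequences were aligned with Biopython 1.88. Genes named were the 8 members, the 3 genes of smallest unadjusted p in each list, the 2 nearest profiles of each tested member, and Nrp1 and Lyz2, of which some are not reported here; other genes in the text were chosen after their values were seen. The members and lists were chosen with earlier results of these data known.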

Additional observations from a re-analysis of the deposited data

How the results depend on the processing

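Csf2rb, Csf2rb2, their sum and Csf1 kept their direction and did not pass under any alternative, with log2 fold changes of 0.34 to 0.55, 0.50 to 0.71, 0.41 to 0.63 and -0.49 to -0.12. The row order and filter alternatives leave the values of these genes as they are, so the direction could not change there. The exact permutation test cannot fall below 0.2, so no gene could pass in it. The limma adjusted p for Csf2rb2 ran from 0.25 with library weights to 1.00. Csf1r turned positive with equal FPKM sums (0.022), library weights (0.12), the replicate block (0.089) and quantile normalization (0.13), and ran from -0.18 to 0.089 when 1 library was left out. Csf2ra turned positive with equal sums (0.0079) and quantile normalization (0.026), and ran from -0.17 to 0.019 when 1 was left out. Csf3r turned negative with median-of-ratios scaling (-0.013), was 0.45 with library weights against 0.12, and ran from -0.16 to 0.35 when 1 was left out. Scaling moved the median of all genes, from 0.11 to -0.01 with median-of-ratios and 0.17 with equal sums.

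Over all genes 5 were called higher and 2 lower. These counts were 2 and 1 in the order as deposited, 1 and 0 with no filter, 1 and 1 with a filter at 5 FPKM, 12 and 9 with library weights and 3 and 1 with the replicate block; 3 were higher with a pseudocount of 0.1. With 1 library left out they were 0 to 7 higher and 0 to 7 lower, and limma called 0 without knockout replicate 1 (at an unadjusted p under 0.05, 36 higher and 34 lower) and 0 without knockout replicate 2 (41 higher, 26 lower). The fits without a knockout replicate rest on 1 knockout library, so their counts cannot be set beside the others. The cause of the other changes was not tested. The labels do not say that a shared number marks a shared mouse or day, so the numbers were not treated as pairs. Deviations of same-numbered libraries from their group means had an r across genes of -0.05 for replicate 1 and -0.01 for replicate 2. The deviations of the 2 knockout libraries mirror each other, and those of wild-type include replicate 3 in the mean, so this check cannot decide on pairing. Wild-type replicate 3 has no partner in the block, whose values for the members equal those without that library (Csf2rb2 0.60, Csf2rb 0.38). Leaving wild-type replicate 3 out of the list counts was chosen after seeing the data. The unknown depth limits what can be said of Csf2 and Csf3.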
